A study of Macaca mulatta with 30 samples.

Results

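The genes described here are the aminoacyl-tRNA synthetases and the translation initiation factors of the rhesus macaque (Macaca mulatta), chosen by the form of their symbols and a minimum level. A gene belonged to the set if its symbol was that of a synthetase, cytoplasmic or mitochondrial, or began with EIF1 to EIF6, and if it reached 1 TPM, a unit that gives a gene its length-corrected share of all transcripts in a library, in at least 6 of the 30 libraries. In the expression table, which lists 21292 genes, 88 had such a symbol, and 87 of them passed the level filter, which 13550 genes of the whole table passed. The 87 genes are 36 synthetases and 51 initiation factor genes. The single gene left out was EIF4E1B, which never exceeded 0.199 TPM. The genes nearest above the limit were LARS2, at 1 TPM or more in 7 libraries, and EIF5A2, in 8. The EIF3C subunit is not analysed here.

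The libraries came from 6 macaques, animals 1 to 4 female and animals 5 and 6 male. Each animal gave 1 RNA-seq library from each of 5 tissues, namely 3 salivary glands (parotid, submandibular, sublingual), pancreas and liver. RNA was taken from 3 cryosections of 30 µm per flash-frozen tissue piece and was sequenced as read pairs of 150 bases. By the library names the parotid piece of animal 3 was from the right side, and the other glands were from the left. No treatment, age or strain is given in the sources used here, and all 5 groups come from the same animals. The study, which concerns the amylase locus, compared each salivary gland with the pancreas and the pancreas with the liver. TPM values sum to the same total in every library and do not carry the sequencing depth, so no counting interval can be given for them.

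Aminoacyl-tRNA synthetases join each amino acid to its tRNA. The cytoplasmic enzymes serve the ribosomes that make secreted and cytosolic proteins, and most amino acids have a separate nuclear gene, marked by the suffix 2, whose product works inside mitochondria. GARS and KARS each supply both compartments, and several cytoplasmic enzymes are held together in the multisynthetase complex. Initiation factors bring the ribosome to the start codon: eIF4 proteins bind the mRNA cap and unwind the leader, eIF3 bridges mRNA and the small subunit, eIF2 delivers the initiator tRNA, and eIF1, eIF1A, eIF5 and eIF5B set the start site. Kinases that phosphorylate eIF2 and the 4E-binding proteins that sequester eIF4E are the main brakes on the process. Acinar cells of the pancreas and salivary glands and hepatocytes are all known for heavy synthesis of secreted proteins.

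Because TPM is a share of the library, a few very abundant transcripts lower the values of all other genes. The 10 most abundant genes held 11.1% to 81.4% of all TPM in a library, with medians of 79.6% in parotid, 75.6% in the submandibular gland, 37.3% in the sublingual gland and 46.1% in pancreas. Values are therefore given both as deposited and after division by trimmed-mean factors, which ranged from 0.468 to 2.67; the latter are called scaled TPM. The submandibular library of animal 4 had a summed level of 2520 TPM for 11 salivary markers, against 264161 to 370935 TPM in the other 5. It also had 10911 TPM of blood and 7840 TPM of adipose markers, where the other 5 reached at most 216 and 128 TPM. The pancreas library of animal 4 had 4053 TPM for 14 pancreatic markers, against 184510 to 393235 TPM in the other 5. It also had 18013 TPM of adipose and 13961 TPM of blood markers, where the other 5 reached at most 1700 and 473 TPM. The parotid library of animal 6 had 91284 TPM of skeletal muscle markers, and the sublingual library of animal 4 had salivary markers at 6021 TPM. Muscle markers also reached 26972 and 9905 TPM in the sublingual libraries of animals 5 and 1 and 6624 TPM in the parotid library of animal 1. The salivary marker sum of the parotid library of animal 6, 79298 TPM, lay within the 49671 to 288669 TPM of the other 5 parotid libraries. None of these marker genes was at 0 in the libraries named, and all 6 livers carried their markers. The part of these features in the results was not tested, but the counts of called genes are also given without the first 3 of these libraries, called here the 3 libraries that stood apart. In bulk tissue a smaller number of cells of a type and less RNA per cell cannot be told apart.

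Summed over the 87 genes, the set made up a small share of each transcriptome. The mean share of all TPM was 0.181% in parotid, 0.213% in the submandibular gland, 0.275% in the sublingual gland, 0.229% in pancreas and 0.276% in liver. Liver libraries held 2760 ± 454 TPM of the set (SD, n = 6) and parotid libraries 1811 ± 776 TPM. On the scaled values the order of these 2 tissues was the opposite, at 1872 ± 332 in liver and 2594 ± 421 in parotid. The most abundant members, by the mean over the 30 libraries, were EIF5A at 212 TPM, the 4E-binding protein EIF4EBP1 at 201 TPM and the start-codon factor EIF1 at 198 TPM. The next were the RNA helicase EIF4A2 at 106 TPM, EIF3K at 99.4 TPM and EIF3G at 87.1 TPM. The lowest were the mitochondrial LARS2 at 0.791 TPM, EIF5A2 at 0.804 TPM and the mitochondrial MARS2 at 0.882 TPM.

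**Figure D1:**
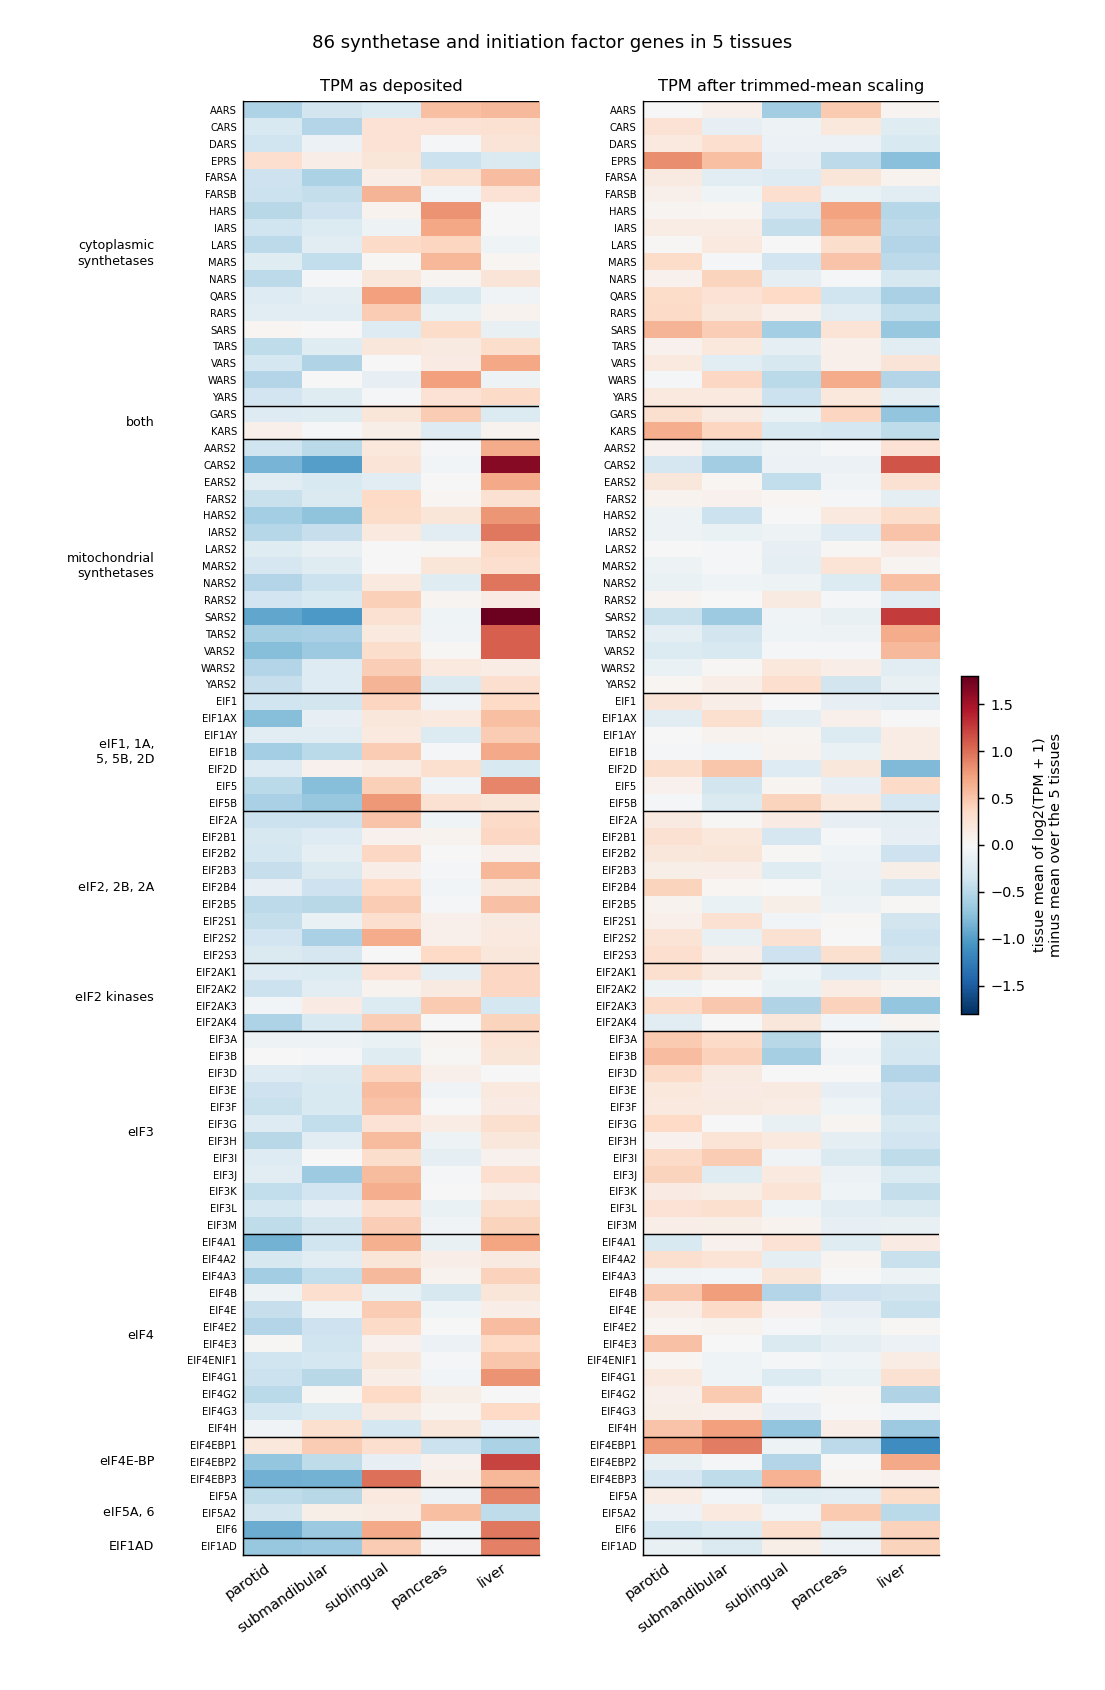
Each row is a gene, 86 of the 87 being drawn, and each column a tissue; colour is the tissue mean of log2(TPM + 1) over 6 animals minus the mean of the 5 tissue means, from TPM as deposited (left) and after trimmed-mean scaling (right). Of all 87 genes, 60 have their lowest mean TPM in parotid as deposited and 41 in liver after scaling, counts with no background from all genes. CARS2, SARS2, TARS2 and VARS2 stay red in liver and HARS and IARS stay red in pancreas on both.

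The tissue with the highest mean depended on the scale for the set as a whole, but less so for some roles. The highest and lowest tissues were not counted over all genes that passed the filter, so the counts below have no background. The median log2 difference of all those genes in liver minus parotid was 0.84 as deposited and 0.04 scaled. As deposited, 38 of the 87 genes had their highest mean in liver, 31 in the sublingual gland and 13 in pancreas, and 60 had their lowest in parotid. After scaling, 23 were highest in parotid, 18 in liver and 13 in pancreas, and 41 were lowest in liver. Of the 16 mitochondrial synthetases 12 were highest in liver as deposited and 11 after scaling, whereas 14 were lowest in parotid as deposited and 1 after scaling. Of the 18 cytoplasmic synthetases 7 were highest in pancreas as deposited and 8 after scaling, whereas the lowest tissue moved from parotid for 13 of them to liver for 14.

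Differences between tissues were tested with limma on log2(TPM + 1) over all 13550 genes and 30 libraries, with the animal as a block. A gene was called at a Benjamini-Hochberg adjusted p below 0.05, and the fold changes, given on that log2 scale, understate changes of genes near 1 TPM. In parotid against pancreas 1 member was higher and 6 were lower, when 15.8% of all genes tested were called; on the scaled values 6 were higher and 2 lower against 16.7%. In submandibular gland against pancreas 0 were higher and 3 lower (9.71% of all genes called), and 6 and 2 on the scaled values (16%). In sublingual gland against pancreas 1 was higher and 1 lower (13.9%), and 2 and 11 on the scaled values (21.5%). In pancreas against liver 5 were higher and 9 lower (30.4% of all genes, 23.6% lower), and 12 and 7 on the scaled values (36.9%, 20.9% lower). The share of members called was thus below the share of all genes in each of these 4 comparisons on both scales. The members' median log2 fold change followed that of all genes: it was -0.42 against -0.48 in parotid minus pancreas, -0.33 against -0.33 in the submandibular gland, 0.27 against 0.23 in the sublingual gland and -0.28 against -0.36 in pancreas minus liver. After scaling the members' medians were 0.12, 0.10, 0.00 and 0.15, with all-gene medians of -0.03, -0.00, 0.00 and -0.02. Without the 3 libraries that stood apart the calls on the deposited scale grew to 2 higher and 17 lower in parotid (28.2% of all genes), 2 and 27 in the submandibular gland (34.9%), 29 and 5 in the sublingual gland (37.8%), all against pancreas, and 6 and 31 in pancreas against liver (52.1%).

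**Figure D2:**
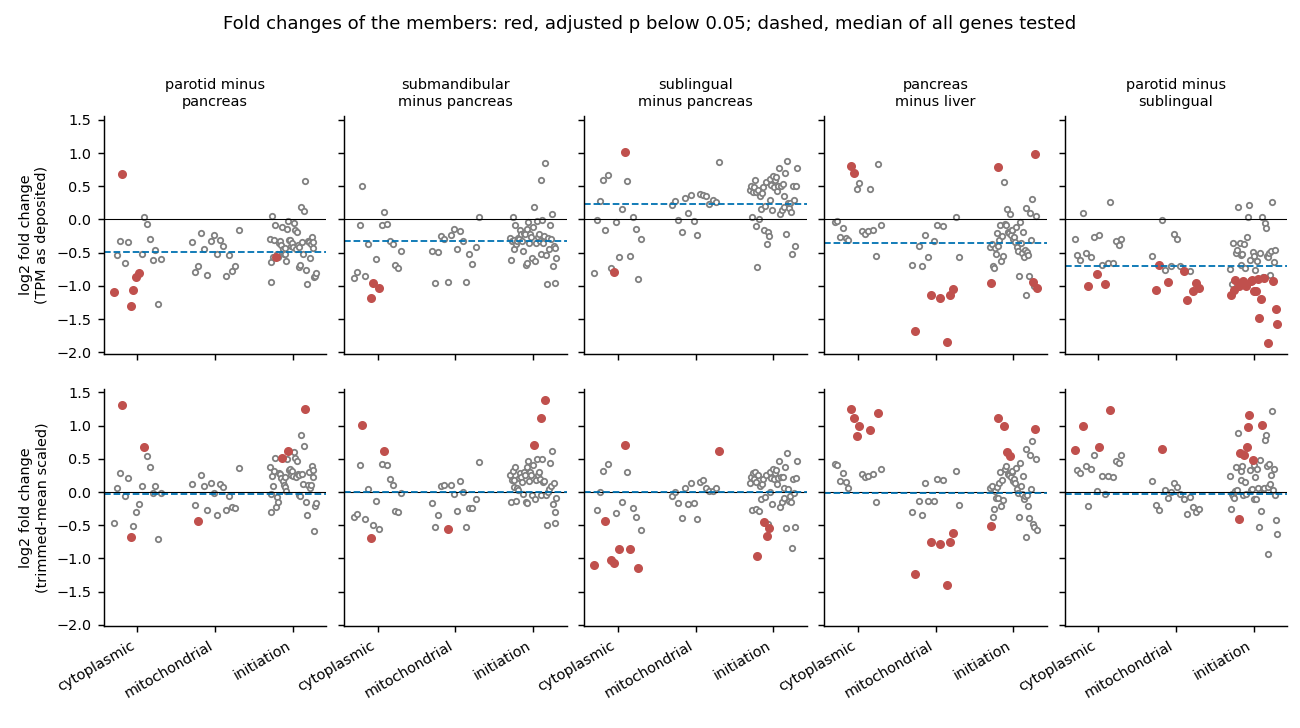
Log2 fold change of each cytoplasmic synthetase, mitochondrial synthetase and initiation factor gene in 5 comparisons, from TPM as deposited (top) and after trimmed-mean scaling (bottom); GARS and KARS are not drawn. Filled red points have an adjusted p below 0.05 and the dashed line is the median of all 13550 genes, which lies at -0.70 for parotid minus sublingual gland as deposited and at -0.03 after scaling.

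Among the cytoplasmic synthetases, those for histidine and isoleucine were higher in pancreas than in parotid, submandibular gland and liver. HARS, the histidyl-tRNA synthetase, ranged from 15.8 to 33.2 TPM in pancreas (median 27.1), from 7.10 to 12.1 TPM in parotid (median 9.24), from 7.21 to 31.9 TPM in the submandibular gland (median 8.15), from 9.07 to 17.0 TPM in the sublingual gland (median 14.9) and from 11.7 to 14.8 TPM in liver (median 13.6). All 6 pancreas libraries lay above all 6 of parotid and of liver, the submandibular range overlapped only through animal 4, and the sublingual range overlapped in part. HARS was lower in parotid than in pancreas by a log2 fold change of -1.30 (SE 0.29, adjusted p = 0.00253, lower in 6 of 6 animals), and by -0.68 on the scaled values (adjusted p = 0.0133). In the submandibular gland HARS was lower by -1.18 (adjusted p = 0.00786, scaled -0.69, adjusted p = 0.0129), and higher in pancreas than liver by 0.81 (adjusted p = 0.0356, scaled 1.25, adjusted p = 1.11e-05). Against sublingual gland the value of -0.74 missed the threshold as deposited (adjusted p = 0.0958) and the scaled value of -1.03 passed it (adjusted p = 0.000347).

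IARS, the isoleucyl-tRNA synthetase of the multisynthetase complex, ranged from 8.14 to 15.5 TPM in pancreas (median 9.78). It ranged from 2.96 to 8.08 TPM in parotid (median 4.36), from 3.47 to 8.77 TPM in the submandibular gland (median 4.65), from 4.22 to 7.80 TPM in the sublingual gland (median 5.54) and from 4.00 to 7.89 TPM in liver (median 6.25). The pancreas libraries lay above those of parotid, sublingual gland and liver without overlap. IARS was lower than in pancreas by -1.06 in parotid (SE 0.24, adjusted p = 0.00322), by -0.95 in the submandibular gland (adjusted p = 0.0105) and by -0.80 in the sublingual gland (adjusted p = 0.0268), and was 0.71 higher in pancreas than in liver (adjusted p = 0.0285). On the scaled values the sublingual and liver comparisons passed, at -1.07 (adjusted p = 0.00113) and 1.11 (adjusted p = 0.00028), and the parotid and submandibular ones did not, at -0.51 and -0.50. The parotid calls of HARS and IARS held when any 1 animal was left out. Against submandibular gland the call of HARS failed without animal 1, 2 or 3 (adjusted p up to 0.109) and that of IARS without animal 1, 2, 3 or 5 (up to 0.101). Against liver both failed without animal 1, 2, 3 or 5, with adjusted p up to 0.153 for HARS and 0.14 for IARS. The sublingual call of IARS failed without animal 1, 2, 3 or 6 (up to 0.171).

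3 further cytoplasmic synthetases were lower in parotid than in pancreas on the deposited scale alone. AARS, the alanyl-tRNA synthetase and with SARS the most abundant of the cytoplasmic group, ranged from 10.8 to 18.2 TPM in parotid (median 12.7) and from 23.8 to 39.6 TPM in pancreas (median 26.5). The difference was -1.10 (SE 0.33, adjusted p = 0.025), with no overlap, and -0.46 on the scaled values (adjusted p = 0.153). MARS, which charges methionine tRNA, ranged from 7.30 to 14.02 TPM in parotid and from 15.4 to 23.3 TPM in pancreas, with differences of -0.80 as deposited (adjusted p = 0.0393) and -0.18 scaled. It was also lower in the submandibular gland by -1.04 (adjusted p = 0.0105), and by -0.55 on the scaled values, which missed the threshold (adjusted p = 0.0545). LARS, the leucyl-tRNA synthetase, ranged from 3.23 to 4.86 TPM in parotid and from 5.75 to 11.5 TPM in pancreas, a difference of -0.86 as deposited (adjusted p = 0.0156) and -0.29 scaled. Each of these parotid calls failed without animal 1, 2, 3 or 5, with adjusted p up to 0.122, 0.23 and 0.13. WARS, the tryptophanyl-tRNA synthetase, reached 38.8 TPM in pancreas and 35.3 TPM in the submandibular gland of animal 4, against at most 12.4 and 4.11 TPM in the other animals. It was called on the scaled values, 1.19 higher in pancreas than in liver (adjusted p = 0.00157) and -1.15 in the sublingual gland minus pancreas (adjusted p = 0.00457), and is named after its values were seen.

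The bifunctional EPRS, which charges glutamate and proline tRNAs within the multisynthetase complex, ran the other way. It ranged from 9.33 to 15.7 TPM in parotid (median 10.8), from 6.84 to 11.4 TPM in the submandibular gland (median 10.2), from 5.71 to 14.8 TPM in the sublingual gland (median 10.7), from 5.25 to 8.80 TPM in pancreas (median 6.38) and from 6.10 to 8.91 TPM in liver (median 7.32). The parotid libraries lay above all pancreas and all liver libraries. EPRS was higher in parotid than in pancreas by 0.69 (SE 0.24, adjusted p = 0.0469) and by 1.31 on the scaled values (adjusted p = 0.00182), higher in 6 of 6 animals. In liver EPRS was lower than in parotid by -0.56 (adjusted p = 0.0438, scaled -1.60, adjusted p = 6.75e-05). Both deposited-scale calls failed without animal 1, 2, 3, 5 or 6, with adjusted p up to 0.204 and 0.158. QARS, the glutaminyl enzyme of the same complex, ranged from 19.5 to 42.3 TPM in the sublingual gland (median 30.5) and from 9.06 to 43.2 TPM in pancreas (median 11.8). The only pancreas library above 17.0 TPM was that of animal 4. QARS was higher in the sublingual gland than in pancreas by 1.01 (SE 0.34, adjusted p = 0.0485, scaled 0.71, adjusted p = 0.0163), a deposited-scale call that failed without animal 1, 2, 3, 5 or 6, with adjusted p up to 0.239.

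The other members of that complex did not share 1 direction. IARS, LARS and MARS were lower in parotid than in pancreas, EPRS was higher, and RARS and DARS, named with the complex, were at -0.07 (adjusted p = 0.863) and -0.33 (adjusted p = 0.501). KARS, the lysyl enzyme, was at 0.32 as deposited (adjusted p = 0.473) and was 0.97 higher on the scaled values (adjusted p = 0.00123). Of the 3 non-enzymatic scaffold genes of the complex, AIMP2 was higher in parotid, at 13.9 ± 11.6 TPM against 5.99 ± 5.79 TPM in pancreas (1.15, adjusted p = 0.0456, scaled 1.79, adjusted p = 0.000244, higher in 5 of 6 animals). GARS, the glycyl enzyme of both compartments, ranged from 7.69 to 16.2 TPM in pancreas (median 9.38) and from 4.32 to 8.16 TPM in liver (median 5.54). GARS was higher in pancreas by 0.70 (SE 0.27, adjusted p = 0.0471, scaled 1.09, adjusted p = 0.000247) in 6 of 6 animals, with overlapping ranges. Without animal 1, 2, 3 or 5 the adjusted p of GARS as deposited was up to 0.222.

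As a group the 18 cytoplasmic synthetases had 1 higher and 5 lower in parotid against pancreas, 0 and 3 in the submandibular gland, 1 and 1 in the sublingual gland, and 2 and 0 in pancreas against liver. The shares of all genes called were 15.8%, 9.71%, 13.9% and 30.4%. On the scaled values the counts were 2 and 1, 2 and 1, 1 and 7, and 6 and 0, with shares of 16.7%, 16%, 21.5% and 36.9%. Their median log2 fold change in pancreas minus liver was -0.10 as deposited and 0.32 scaled, beside all-gene medians of -0.36 and -0.02.

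Among the mitochondrial synthetases 6 of the 16 were lower in pancreas than liver and 0 were higher, and the same 6 were called on the scaled values; they were CARS2, SARS2, TARS2, IARS2, NARS2 and VARS2. The background of genes lower in pancreas was 23.6% as deposited and 20.9% scaled, against 6 of 16 here. The group's median log2 fold change was -0.62 as deposited and -0.24 scaled, beside all-gene medians of -0.36 and -0.02. Without the 3 libraries 11 of the 16 were lower and 0 higher on the deposited scale, when 52.1% of all genes were called in either direction. On the scaled values without them 5 were lower and 0 higher. The share of all genes that were lower was not counted without these libraries, so these counts have no matching background.

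CARS2, the mitochondrial cysteinyl enzyme, ranged from 22.6 to 50.7 TPM in liver (median 33.7). It ranged from 3.38 to 8.54 TPM in parotid (median 4.69), from 2.49 to 23.2 TPM in the submandibular gland (median 3.51), from 6.87 to 17.1 TPM in the sublingual gland (median 13.02) and from 4.73 to 24.1 TPM in pancreas (median 7.98). The liver range lay above those of parotid and sublingual gland and touched that of pancreas through animal 3 and that of submandibular gland through animal 4. CARS2 was lower in pancreas than in liver by -1.68 (SE 0.37, adjusted p = 0.000737, scaled -1.24, adjusted p = 4.03e-05), lower in 6 of 6 animals. Against the glands it was higher in liver by 2.47 in parotid, 2.64 in the submandibular gland and 1.41 in the sublingual gland as deposited, and by 1.43, 1.76 and 1.23 scaled, all called. These 3 liver and gland comparisons were added after the data were seen.

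SARS2, the mitochondrial seryl enzyme, ranged from 20.3 to 71.9 TPM in liver (median 33.7). It ranged from 2.74 to 11.3 TPM in parotid (median 4.203), from 2.01 to 20.1 TPM in the submandibular gland (median 3.34), from 2.5 to 34.1 TPM in the sublingual gland (median 12.3) and from 3.77 to 22.8 TPM in pancreas (median 7.87). The liver libraries lay above all parotid and submandibular libraries and overlapped the other 2 tissues, in pancreas only through animal 4. SARS2 was lower in pancreas than in liver by -1.84 (SE 0.44, adjusted p = 0.00212, scaled -1.39, adjusted p = 0.000228) in 6 of 6 animals. It was higher in liver than in parotid by 2.69, than in the submandibular gland by 2.79 and than in the sublingual gland by 1.49 (scaled 1.66, 1.92 and 1.33), all called. For CARS2 and SARS2 the calls against all 4 other tissues held when any 1 animal was left out, with adjusted p of at most 0.0379.

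The remaining 4 had smaller differences. TARS2, the threonyl enzyme, ranged from 1.54 to 7.98 TPM in pancreas (median 2.14) and from 5.74 to 9.50 TPM in liver (median 8.03), a difference of -1.14 (SE 0.33, adjusted p = 0.0103, scaled -0.75, adjusted p = 0.000641). IARS2, the isoleucyl enzyme, ranged from 1.61 to 7.27 TPM in pancreas and from 4.14 to 11.2 TPM in liver, a difference of -1.14 (SE 0.35, adjusted p = 0.0155, scaled -0.75, adjusted p = 0.00391). NARS2, the asparaginyl enzyme, ranged from 1.31 to 4.80 TPM in pancreas and from 3.73 to 13.1 TPM in liver, a difference of -1.18 (SE 0.38, adjusted p = 0.0202, scaled -0.78, adjusted p = 0.0229). VARS2, the valyl enzyme, named after its values were seen, ranged from 4.35 to 12.6 TPM in pancreas and from 12.1 to 19.1 TPM in liver, a difference of -1.05 (SE 0.32, adjusted p = 0.0124, scaled -0.62, adjusted p = 0.0252). For all 4 genes the ranges overlapped only through the pancreas library of animal 4. The calls failed without animal 2 for TARS2, IARS2 and NARS2, and without animal 5 for IARS2 and NARS2, with adjusted p up to 0.0611, 0.108 and 0.128. IARS2 also failed without animal 6, at 0.0538. Without animal 2 only 2 members were still lower in pancreas, CARS2 and SARS2, so the VARS2 call failed there too. VARS2 was not followed singly through the other animals.

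**Figure D3:**
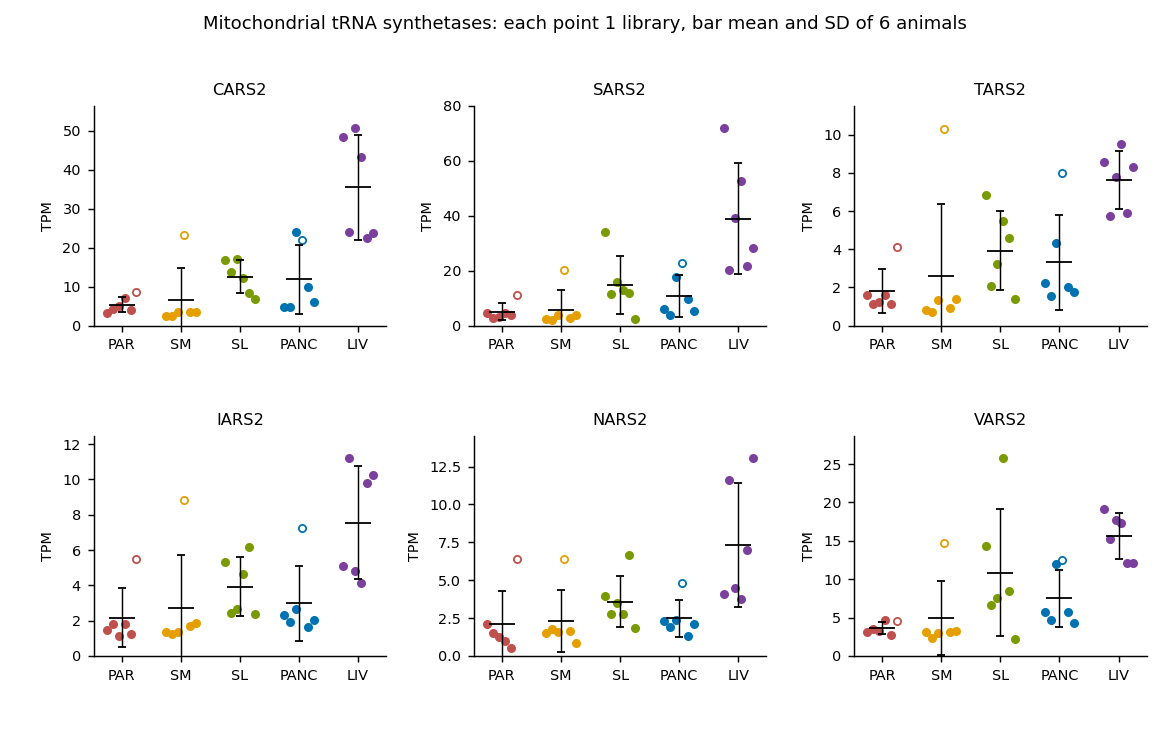
TPM of the 6 mitochondrial synthetases that were lower in pancreas than in liver on both scales, drawn as in the plot of the cytoplasmic enzymes (each point 1 library, bar mean and SD of 6 animals drawn from 0 upward, open points the 3 libraries that stood apart). The liver points of CARS2 and SARS2 reach 50.7 and 71.9 TPM, and the highest submandibular point in every panel is the open one of animal 4.

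In liver against parotid 12 of the 16 mitochondrial synthetases were higher and 0 lower as deposited, and 8 and 0 scaled, when 53.4% and 25.1% of all genes were called higher. In liver against submandibular gland 11 and 8 were higher (45.1% and 25.6% of all genes), and in liver against sublingual gland 4 and 6 were higher (18.7% and 23.6%), with 0 lower in each. The summed level of the 16 genes was 155.8 ± 26.1 TPM in liver, 71.5 ± 43.6 TPM in pancreas, 87.5 ± 31.1 TPM in the sublingual gland, 49.7 ± 56.0 TPM in the submandibular gland and 39.1 ± 19.0 TPM in parotid. After scaling the sums were 105.1 ± 15.3, 59.4 ± 7.32, 63.1 ± 11.7, 49.7 ± 6.39 and 55.6 ± 11.2, and the lowest liver value of 86.9 lay above the highest value of every other tissue, 78.8 in the sublingual gland. The cytoplasmic group in the same comparisons had 4 higher and 1 lower in liver against parotid as deposited and 0 higher and 8 lower scaled.

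The ratio of the cytoplasmic to the mitochondrial enzyme for the same amino acid does not depend on how a library is scaled. For 17 pairs the ratio of the TPM values was computed in each library and averaged geometrically over the 6 animals. It was lowest in liver for 11 of the 17 pairs, and the median over the pairs was 1.85 in liver, 3.27 in the sublingual gland, 3.87 in pancreas, 4.18 in parotid and 5.21 in the submandibular gland. These pairs share libraries, and the ratios are given as a description with no test. The cysteine pair CARS and CARS2 had a ratio of 0.301 in liver, ranging from 0.135 to 0.421, against 1.26 in parotid, 1.21 in the submandibular gland, 0.833 in the sublingual gland and 1.04 in pancreas. The highest liver ratio lay below the lowest ratio of each other tissue, which was 0.431 in a pancreas library. The serine pair was at 1.22 in liver (0.410 to 2.599), 6.66 in pancreas, 3.46 in the sublingual gland, 10.7 in parotid and 11.6 in the submandibular gland. The isoleucine pair was at 0.864 in liver (0.409 to 1.60), a range that crosses 1, and at 4.06 in pancreas (1.12 to 6.58). The 6 pairs that were not lowest in liver were alanine, tryptophan and tyrosine, lowest in the sublingual gland, both subunits of the phenylalanine enzyme, lowest in the submandibular gland, and arginine, lowest in pancreas at 3.87 beside 3.88 in liver.

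**Figure D4:**
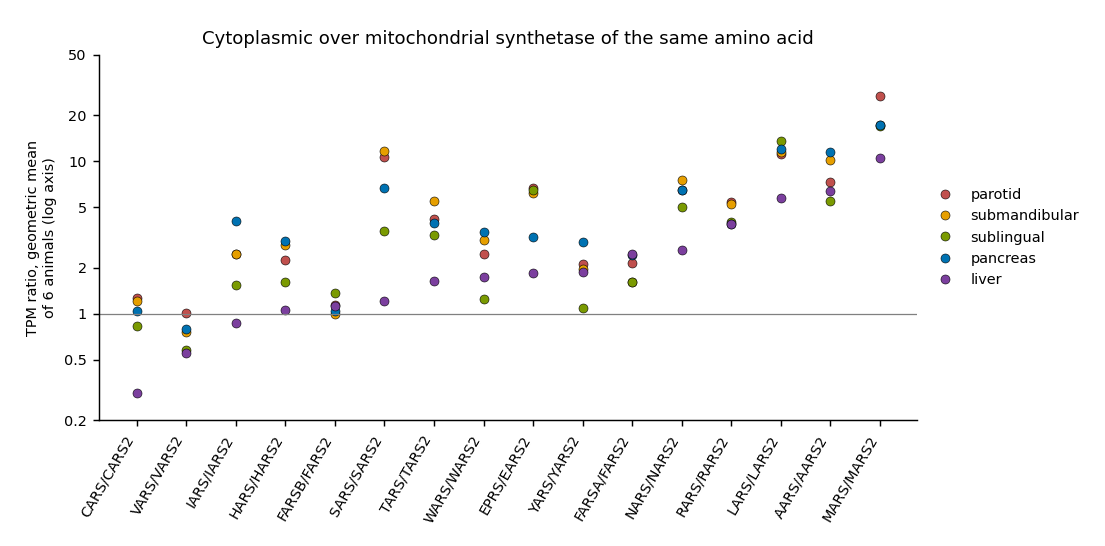
Ratio of cytoplasmic to mitochondrial synthetase TPM for 16 of the 17 pairs in 5 tissues, each point the geometric mean of 6 animals on a log axis, with pairs ordered by the liver value; FARSA and FARSB are the 2 subunits of 1 cytoplasmic enzyme and share the mitochondrial FARS2. The liver point is lowest for 10 of the 16 pairs drawn and lies at 0.301 for the cysteine pair.

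Of the 51 initiation factor genes 0 were higher in a salivary gland than in pancreas as deposited, and 1 was lower, in parotid, when 15.8%, 9.71% and 13.9% of all genes were called in the 3 glands. On the scaled values 3 were higher in parotid, 3 higher in the submandibular gland and 4 lower in the sublingual gland (16.7%, 16% and 21.5% of all genes). Without the 3 libraries that stood apart the deposited counts were 1 higher and 3 lower in parotid, 1 and 10 in the submandibular gland and 22 and 1 in the sublingual gland (28.2%, 34.9% and 37.8%). In pancreas against liver 2 were higher and 3 lower (30.4%), 5 and 1 on the scaled values (36.9%), and 2 and 19 without the 3 libraries (52.1%). The start-site group as counted here holds 7 genes, those of eIF1, eIF1A, eIF5 and eIF5B together with EIF2D. As deposited 3 of the 7 were lower in parotid than in the sublingual gland, beside 40.6% of all genes. In liver 3 were higher than in parotid as deposited, beside 53.4%. EIF1 ranged from 79.2 to 402 TPM in parotid (median 118), from 93.1 to 502 TPM in the submandibular gland (median 113), from 188 to 312 TPM in the sublingual gland (median 218), from 122 to 390.3 TPM in pancreas (median 147) and from 149 to 291 TPM in liver (median 250). The highest parotid, submandibular and pancreas libraries were the 3 that stood apart, and no difference in EIF1 between tissues was called. EIF1B, a close paralog of EIF1, had medians of 24.6 TPM in parotid, 24.4 TPM in the submandibular gland, 60.6 TPM in the sublingual gland, 34.8 TPM in the pancreas and 80.0 TPM in liver. It was higher in liver than in parotid by 1.29 (adjusted p = 0.0083), a call that failed on the scaled values (0.16, adjusted p = 0.593) and without animal 5 (adjusted p = 0.0546). EIF5B, the GTPase that joins the subunits, ranged from 7.10 to 24.9 TPM in parotid and from 17.5 to 52.5 TPM in the sublingual gland, a difference of -1.35 (SE 0.35, adjusted p = 0.00424, scaled -0.43, adjusted p = 0.274). EIF5, named after its values were seen, was lower in pancreas than in liver by -0.95 on the deposited scale alone.

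EIF1AX and EIF1AY encode near-identical forms of eIF1A, from the X and the Y chromosome, and reads may be shared between them. EIF1AY lay between 0 and 1.15 TPM in the 20 libraries of female animals, 4 of which were at 0, and between 6.17 and 82.9 TPM in the 10 libraries of male animals (median 31.1). The ranges did not overlap, so that the sex given for each of the 30 libraries matched this gene. Among the male libraries the lowest and the highest both came from parotid. EIF1AX ranged from 9.81 to 110 TPM in the female libraries (median 24.1) and from 5.26 to 66.1 TPM in the male libraries (median 20.6), which overlapped widely.

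For eIF2, its exchange factor eIF2B and EIF2A, 0 of 9 genes were called in any gland against pancreas or in pancreas against liver as deposited. The shares of all genes called were 15.8% in parotid, 9.71% in the submandibular gland, 13.9% in the sublingual gland and 30.4% in pancreas against liver. EIF2S1, the alpha subunit that carries the regulatory phosphorylation site, had medians of 6.29 TPM in parotid, 6.83 TPM in the submandibular gland, 10.8 TPM in the sublingual gland, 8.49 TPM in the pancreas and 9.94 TPM in liver. Its ranges overlapped between all tissues and it was called in no comparison as deposited. EIF2S2, the beta subunit and the most abundant of the group, ranged from 26.8 to 84.3 TPM in the submandibular gland (median 38.2) and from 73.0 to 137 TPM in the sublingual gland (median 101). It was lower in submandibular than in the sublingual gland by -1.25 (SE 0.27, adjusted p = 0.00206) in 6 of 6 animals, with ranges that overlapped, and by -0.41 on the scaled values, which missed the threshold (adjusted p = 0.357). EIF2B1, a subunit of the exchange factor, had medians of 12.6 TPM in parotid, 13.9 TPM in pancreas and 22.8 TPM in liver, and none of its differences was called as deposited.

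Of the 4 kinases that phosphorylate eIF2, EIF2AK3 alone was called between pancreas and liver on each scale with all libraries, beside 30.4% of all genes as deposited; without the 3 libraries 1 was higher and 2 were lower (52.1%). EIF2AK3, or PERK, the kinase that senses unfolded protein in the endoplasmic reticulum, ranged from 1.70 to 6.09 TPM in pancreas (median 4.15), from 1.22 to 2.43 TPM in liver (median 1.72), from 0.961 to 3.59 TPM in parotid (median 2.32), from 2.13 to 3.29 TPM in the submandibular gland (median 2.72) and from 0.833 to 4.57 TPM in the sublingual gland (median 1.60). EIF2AK3 was higher in pancreas than in liver by 0.79 (SE 0.28, adjusted p = 0.0308, scaled 1.12, adjusted p = 0.00644) in 6 of 6 animals, and the lowest pancreas value was that of animal 4. The deposited-scale call failed without animal 1, 2, 3, 5 or 6, with adjusted p up to 0.145. EIF2AK4, or GCN2, the kinase that senses uncharged tRNA, ranged from 0.733 to 1.56 TPM in parotid (median 0.849) and from 2.22 to 4.39 TPM in the sublingual gland (median 2.98). The ranges did not overlap, and the difference was -1.005 (SE 0.26, adjusted p = 0.00393), or -0.41 on the scaled values (adjusted p = 0.0452). The deposited-scale call held when any 1 animal was left out, and the scaled call was not followed in that way. On the scaled values without the 3 libraries 0 members, EIF2AK4 included, were called lower in parotid than in the sublingual gland. EIF2AK2, or PKR, which is activated by double-stranded RNA, was low everywhere, with medians of 0.649 TPM in parotid and 1.44 TPM in pancreas. It was lower in parotid by -0.56 (adjusted p = 0.0461), and the call failed on the scaled values (-0.23, adjusted p = 0.345), without the 3 libraries (adjusted p = 0.0524) and without animal 1, 2, 3, 5 or 6 (adjusted p up to 0.183). EIF2AK1, the heme-regulated kinase, had medians of 10.9 TPM in liver and 6.08 TPM in parotid. Its difference was 0.61 as deposited (adjusted p = 0.0483) and turned to -0.42 on the scaled values (adjusted p = 0.197); as deposited it failed without animal 1, 2, 3, 5 or 6 (adjusted p up to 0.159).

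As deposited 8 of the 12 subunits of eIF3 had their highest mean in the sublingual gland, and after scaling 6 had it in parotid. The highest tissue was not counted over all genes. 5 of the 12 were lower in parotid than in the sublingual gland as deposited, near the 40.6% of all genes that were, and on the scaled values 3 were higher and 0 lower (17.5% of all genes called). EIF3K, a peripheral subunit and the most abundant, ranged from 47.5 to 99.2 TPM in parotid (median 58.8), from 40.3 to 280.1 TPM in the submandibular gland (median 52.0), from 96.8 to 195 TPM in the sublingual gland (median 138), from 60.8 to 272 TPM in pancreas (median 65.5) and from 83.3 to 109 TPM in liver (median 94.9). It was lower in parotid than in the sublingual gland by -1.08 (SE 0.33, adjusted p = 0.0122) and by -0.10 scaled (adjusted p = 0.811). EIF3G had medians of 52.5 TPM in parotid, 103 TPM in the sublingual gland and 94.3 TPM in liver. In parotid against sublingual gland its value was -0.50 as deposited (adjusted p = 0.256) and 0.49 higher scaled (adjusted p = 0.0213). In each gland against pancreas 0 of the 12 subunits were called as deposited, beside 15.8% (parotid), 9.71% (submandibular) and 13.9% (sublingual) of all genes.

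Of the 12 cap-binding, helicase and scaffold genes of the eIF4 group, 0 were called in any gland against pancreas as deposited. The shares of all genes called were 15.8% in parotid, 9.71% in the submandibular gland and 13.9% in the sublingual gland. EIF4A1, a helicase subunit of eIF4F, ranged from 17.6 to 37.5 TPM in parotid (median 27.5) and from 49.2 to 131 TPM in the sublingual gland (median 66.1). The ranges did not overlap. The difference of -1.49 (SE 0.36, adjusted p = 0.00246) became -0.52 on the scaled values (adjusted p = 0.147). In liver EIF4A1 ranged from 57.5 to 98.7 TPM and was higher than in parotid by 1.55 (adjusted p = 0.000766), or by 0.42 scaled (adjusted p = 0.171). EIF4A2, a paralog with which reads may be shared, had medians of 70.3 TPM in parotid, 63.5 TPM in the submandibular gland, 99.6 TPM in the sublingual gland, 87.9 TPM in the pancreas and 106 TPM in liver and was not called in any comparison as deposited.

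EIF4EBP1, the main translational repressor controlled by mTOR, was one of the most abundant members and ranged from 123 to 323 TPM in parotid (median 216), from 193 to 459 TPM in the submandibular gland (median 233), from 135 to 365 TPM in the sublingual gland (median 244), from 89.7 to 328 TPM in pancreas (median 126) and from 88.5 to 177 TPM in liver (median 118). The liver lay below the submandibular gland without overlap, and the highest pancreas and submandibular values were those of animal 4. EIF4EBP1 was lower in liver than in parotid by -0.75 (SE 0.30, adjusted p = 0.0378, scaled -1.90, adjusted p = 5.63e-05), than in the submandibular gland by -1.03 (adjusted p = 0.00698, scaled -2.04, adjusted p = 2.34e-05) and than in the sublingual gland by -0.87 (adjusted p = 0.0293, scaled -1.03, adjusted p = 0.0148), each in 6 of 6 animals. The submandibular call held when any 1 animal was left out; those in parotid and sublingual gland failed without animal 1, 2, 3 or 5, with adjusted p up to 0.118 and 0.111, and the sublingual call also without animal 6. Against pancreas its values of 0.57 in parotid and 0.85 in the submandibular gland missed the threshold as deposited (adjusted p = 0.183 and 0.0765) and it was higher by 1.25 and 1.39 scaled (adjusted p = 0.00988 and 0.00473). It was the only member lower in liver than in all 3 salivary glands on both scales.

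EIF4EBP2 ranged from 12.4 to 87.7 TPM in liver (median 52.2), from 3.96 to 34.7 TPM in parotid (median 9.42) and from 11.98 to 25.9 TPM in pancreas (median 19.95). It was higher in liver than in parotid by 1.91 as deposited (adjusted p = 0.00994) and its value of 0.82 on the scaled values missed the threshold (adjusted p = 0.15). EIF4EBP3 ranged from 15.5 to 70.2 TPM in the sublingual gland (median 41.8), from 6.55 to 15.1 TPM in parotid (median 9.40), from 4.99 to 67.0 TPM in the submandibular gland (median 6.44), from 9.43 to 58.0 TPM in pancreas (median 16.4) and from 12.3 to 57.0 TPM in liver (median 31.3). Every sublingual library lay above every parotid one, and the submandibular range overlapped through animal 4 alone. EIF4EBP3 was lower in submandibular than in the sublingual gland by -1.85 (SE 0.42, adjusted p = 0.00281, scaled -1.09, adjusted p = 0.0368). It was lower in parotid by -1.86 (adjusted p = 0.00171), where the scaled value of -0.93 missed the threshold (adjusted p = 0.0663).

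EIF5A, the hypusine-containing factor that relieves stalled ribosomes, ranged from 187 to 460 TPM in liver (median 378), from 63.9 to 397 TPM in parotid (median 110), from 78.4 to 404 TPM in the submandibular gland (median 101), from 87.1 to 320 TPM in the sublingual gland (median 232) and from 96.3 to 435 TPM in pancreas (median 150). It was higher in liver than in parotid by 1.34 (SE 0.43, adjusted p = 0.0109) and by 0.19 scaled (adjusted p = 0.631), and the deposited-scale call failed without animal 2, 3 or 5, with adjusted p up to 0.0701. EIF5A2, its paralog, ranged from 0.135 to 4.46 TPM in pancreas (median 1.28) and from 0 to 0.789 TPM in liver (median 0.0893), where 3 of the 6 libraries were at 0. It was higher in pancreas by 0.99 (SE 0.30, adjusted p = 0.0143, scaled 0.95, adjusted p = 0.000611) in 6 of 6 animals, and without animal 1 the adjusted p as deposited was 0.0556. Reads of the 2 paralogs could be shared. EIF6, the anti-association factor of the large subunit, ranged from 38.6 to 56.1 TPM in liver (median 48.2), from 9.16 to 18.0 TPM in parotid (median 11.9) and from 14.9 to 71.1 TPM in pancreas (median 17.2). The liver libraries lay above all parotid libraries, and above all pancreas libraries except that of animal 4. EIF6 was higher in liver than in parotid by 1.84 (SE 0.35, adjusted p = 9.85e-05, scaled 0.74, adjusted p = 0.0312) and lower in pancreas than in liver by -1.04 on the deposited scale alone (adjusted p = 0.0248, scaled -0.57, adjusted p = 0.104). The pancreas call failed without animal 1, 2, 3, 5 or 6, with adjusted p up to 0.121. EIF1AD, which matches the rule by name, ranged from 16.1 to 28.5 TPM in liver (median 25.3) and from 6.33 to 24.7 TPM in pancreas (median 9.99). It was lower in pancreas by -0.95 (SE 0.30, adjusted p = 0.0166, scaled -0.51, adjusted p = 0.0431) and failed as deposited without animal 1, 2 or 6, with adjusted p up to 0.0975.

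In parotid against submandibular gland 0 of the 87 genes were called on either scale by limma, when 0.347% and 0.731% of all genes were; the unadjusted p was below 0.05 for 0 members as deposited and for 4 scaled. Leaving out the 3 libraries gave 0 members and 0.45% of all genes. In parotid against sublingual gland 0 were higher and 29 lower as deposited (41.5% of all genes called, 40.6% lower), and 13 were higher and 1 lower on the scaled values (17.5%, 10.8% lower). The members' median was -0.64 as deposited, beside -0.70 for all genes, and 0.17 scaled, beside -0.03. In submandibular against sublingual gland 0 were higher and 22 lower (27.9%, 27.2% lower), and 13 and 1 scaled (14.8%, 8.43% lower), with members' medians of -0.54 and 0.13 beside all-gene medians of -0.56 and -0.00. Without the 3 libraries the deposited counts were 63 and 62 lower with 0 higher (69.4% and 69.7% of all genes). With all libraries the single members lower than in the sublingual gland on both scales were EIF2AK4 in parotid and EIF4EBP3 in the submandibular gland. The share of all genes lower on both scales at once was not counted. On the scaled values without the 3 libraries 0 members were lower in parotid and 2 in the submandibular gland.

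In liver against parotid 36 members were higher and 2 lower as deposited (58% of all genes called), and 10 higher and 28 lower scaled (43.4%). In liver against submandibular gland 34 were higher and 1 lower (50.7%), and 11 and 32 scaled (46.6%). In liver against sublingual gland 4 were higher and 1 lower (31.5%), and 8 and 11 scaled (44.1%). Without the 3 libraries the deposited counts were 69 and 2 (73.9% of all genes), 66 and 1 (73.9%) and 11 and 5 (45.4%). Of the 10 members higher in liver than in parotid on both scales 8 were mitochondrial synthetases, and the others were EIF6 and EIF1AD. The 4 members higher in liver than in the sublingual gland on both scales, CARS2, EARS2, SARS2 and TARS2, were all mitochondrial synthetases. The share of all genes higher on both scales at once was not counted, so these counts have no matching background. On each scale alone 53.4% and 25.1% of all genes were higher in liver than in parotid. The shares were 18.7% and 23.6% in liver against the sublingual gland. The initiation factors had 20 higher and 1 lower in liver against parotid as deposited and 2 higher and 18 lower scaled.

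6 lists of other translation genes were fixed beside the members, and from each comparison with pancreas the gene with the largest call in each direction over all lists is named. MKNK1, the kinase that phosphorylates eIF4E, was at 23.3 ± 9.13 TPM in pancreas, 1.70 ± 0.843 TPM in parotid, 3.37 ± 5.65 TPM in the submandibular gland, 3.81 ± 1.27 TPM in the sublingual gland and 5.99 ± 1.51 TPM in liver (SD, n = 6). It was lower than in pancreas by -3.12 in parotid (adjusted p = 3.29e-06), -2.97 in the submandibular gland (adjusted p = 9.43e-06) and -2.29 in the sublingual gland (adjusted p = 0.000178), with scaled values of -2.69, -2.72 and -2.54, all called. PABPC1, the poly(A)-binding protein that bridges the mRNA tail to eIF4G, was at 243 ± 193 TPM in the sublingual gland and 53.8 ± 32.2 TPM in pancreas (2.01, adjusted p = 6.54e-05, scaled 1.70) in 6 of 6 animals. Among 12 regulators of initiation 2 were higher and 1 lower in pancreas against liver as deposited, and 2 and 0 scaled. Against pancreas 0 were higher and 2 lower in parotid and in the submandibular gland as deposited, and 2 and 2 in the sublingual gland. The shares of all genes called against pancreas were 15.8% in parotid, 9.71% in the submandibular gland and 13.9% in the sublingual gland. Among 15 genes of the amino acid stress response 3 were higher and 6 lower in pancreas against liver, and 4 and 5 scaled. ASNS, the asparagine synthetase induced by amino acid shortage, was at 2.09 ± 0.284 TPM in liver and 34.96 ± 17.9 TPM in pancreas (3.34, adjusted p = 9.87e-07, scaled 3.64). CEBPB, a transcription factor of the same list, was at 126 ± 91.2 TPM in liver and 13.7 ± 10.4 TPM in pancreas (-3.01, adjusted p = 0.00071, scaled -2.54). Among 10 mitochondrial translation factors 2 were lower in pancreas than liver on each scale and 0 higher, beside 23.6% and 20.9% of all genes. Of 7 elongation factors and 5 termination and recycling factors 0 were called in that comparison as deposited, with 3 and 1 higher in pancreas on the scaled values; of all genes 30.4% and 36.9% were called in either direction on these scales.

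The members whose levels over the 30 libraries were most like those of 3 chosen members were found by Pearson's r of log2(TPM + 1); the libraries share animals and the scale of each library, and the values are a description. For AARS they included YARS at 0.886 and FARSA at 0.788. For WARS they were EIF2S3 at 0.865, EIF2D at 0.853 and EIF3B at 0.802. For EIF4EBP1 they were EPRS at 0.609, EIF2D at 0.459 and QARS at 0.414.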

How the data were processed

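The authors' deposited table gives 1 abundance per gene and library in TPM, estimated with kallisto per the submitters' processing notes, which also list cutadapt, FastQC, MultiQC, HISAT2, SAMtools, featureCounts and DESeq2; their roles, the transcriptome, the genome build and how transcripts were summed to genes are not given in the sources used here. Gene symbols are those of the table; all 87 matched RefSeq's macaque gene list, which holds newer symbols for 18. Every library column was used, and 0 columns were left over.

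Genes with at least 1 TPM in 6 libraries were kept, and log2(TPM + 1) was fitted with limma 3.58.1 (R 4.3.3), with tissue and animal as terms, all 30 libraries and an intensity trend, after a check on simulated data. In that check, for parotid against pancreas, 23% of simulated log2 changes of 1 and 81% of those of 2 were called. Many true differences near a log2 change of 1 can thus go uncalled. Of the calls in the check 2.8% were false. The simulation changed 200 genes in parotid alone, with noise drawn separately for each gene. It held no shifts of whole libraries and no libraries that stood apart, so its rates may not hold for these data. Two-sided p-values received the Benjamini-Hochberg adjustment over 13550 genes in each comparison. The study's within-animal design set the block: deviations from tissue means correlated at 0.161 within animals and -0.0186 between animals, and no 2 libraries were identical. Scaled TPM was divided by trimmed-mean factors (30% of log ratios and 5% of levels trimmed). Tables and figures used Python 3.11.15, pandas 2.3.3 and matplotlib 3.10.9. Alternatives were a pseudocount of 0.1, no filter, a 5 TPM filter, only the 12 libraries compared, no block, the scaled values, leaving out each animal and leaving out 3 libraries; the last together with scaling, and the 3 comparisons of liver with the glands, were added after the data were seen. Each animal is 1 replicate with 1 library per tissue. With the animal as a block, p-values measure the spread of tissue differences among these 6 animals, pooled over all 30 libraries.

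The members, the role groups and the other gene lists were chosen with earlier results of these data known. Named were, per comparison with pancreas, up to 5 called members each way with the same direction in at least 5 animals, up to 3 each way per pair of glands, the 2 most abundant of each role, the 4E-binding proteins, eIF2 kinases, EIF2S1, EIF1AX, EIF1AY, EIF5A and EIF5A2; genes outside this rule are named as such, as examples of a count or as partners in a ratio. One member is counted in the totals but its own values are not reported here.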

Additional observations from a re-analysis of the deposited data

Results flagged for a closer look

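In each tissue the 6 libraries of each named gene were compared with each other on log2(TPM + 1), and a library was picked out where the gap between the highest or lowest library and its nearest neighbour was a large part of the whole range (Dixon's criterion at the 95% level). Of 190 groups tested 41 were picked out, when chance alone picks about 1 in 20, or 9.5 groups; the genes share libraries, so the groups are not independent. The called differences between tissues of the named genes, 89 in all, were also split by sex. In 0 of them did every female animal move one way and every male animal the other. That outcome was close to fixed beforehand, because a called difference needs most animals to move together. Genes named for their calls moved one way in at least 5 animals. With 2 male animals a dependence on sex was thus not tested. The split looked at tissue differences, not at levels, which for EIF1AY separated the sexes.

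The submandibular library of animal 4 had low salivary markers (2520 TPM), with 10911 TPM of blood and 7840 TPM of adipose markers. This library was the highest of its tissue in 29 of the 41 groups, and the part of these features was not tested. Among the synthetases it held AARS at 52.0 TPM, where the other 5 libraries lay between 10.1 and 14.9 TPM, HARS at 31.9, KARS at 38.3, LARS at 12.4, QARS at 65.0, CARS2 at 23.2, IARS2 at 8.81, NARS2 at 6.41, SARS2 at 20.1 and TARS2 at 10.3 TPM. Among the start-site and eIF2 genes it held EIF1 at 502, EIF1AX at 110, EIF1B at 150.0, EIF5B at 35.8, EIF2S1 at 27.6, EIF2B1 at 51.2, EIF2AK1 at 10.8 and EIF2AK4 at 5.25 TPM. Among the others it held EIF3G at 288, EIF3K at 280.1, EIF4A1 at 172, EIF4A2 at 332, EIF4EBP1 at 459, EIF4EBP2 at 57.3, EIF4EBP3 at 67.0, EIF5A at 404, EIF5A2 at 4.42, EIF6 at 66.0 and EIF1AD at 27.5 TPM. After scaling this library was the highest of its tissue in 14 of these 29 groups, within the other 5 libraries in 10 and the lowest in 5, which were EIF2AK1, EIF4EBP1, HARS, KARS and LARS.

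The pancreas library of animal 4, with low pancreatic markers (4053 TPM), was the highest of its tissue for EIF1 at 390.3 TPM, EIF3K at 272, EIF4EBP1 at 328, EIF5A at 435 and IARS2 at 7.27 TPM. It was also the highest in 3 of these 5 on the scaled values. The parotid library of animal 6, with 91284 TPM of muscle markers, was the highest for EIF1 at 402 TPM, EIF1B at 78.0, IARS2 at 5.51, SARS2 at 11.3 and TARS2 at 4.14 TPM. In liver EIF2AK2 reached 3.61 TPM in animal 1, against 1.30 to 1.78 TPM in the other 5, and EIF5A2 reached 0.789 TPM in animal 5, against 0 to 0.183 TPM.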

How the results depend on the processing

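Apart from leaving out single animals, 51 of 80 recomputed counts of called members lay within 1.5 times the reported count and 29 did not; of the 60 counts without 1 animal 17 did and 43 did not. Causes were not tested. The share of all genes called was counted only as deposited, on the scaled values and without the 3 libraries. The counts under the other settings, here and in the next paragraph, thus have no background, and their changes cannot be read as particular to the members. Without the 3 libraries the share of all genes called rose as well, from 30.4% to 52.1% in pancreas against liver. Without the 3 libraries the counts were 71 (liver against parotid), 67 (liver against submandibular), 16 (liver against sublingual), 37 (pancreas against liver), 19, 29 and 34 (parotid, submandibular and sublingual against pancreas), 63 (parotid against sublingual) and 62 (submandibular against sublingual). On the scaled values they were 19, 14, 13, 8 and 14 for liver against sublingual, parotid against sublingual, sublingual and submandibular against pancreas, and submandibular against sublingual. Scaled without the 3 libraries they were 30 (liver against sublingual), 16 (parotid against sublingual) and 11, 15 and 15 (parotid, submandibular and sublingual against pancreas). With only the 12 libraries compared they were 16 (liver against submandibular), 9 (pancreas against liver), 4, 11 and 0 (parotid, submandibular and sublingual against pancreas), 13 (parotid against sublingual) and 1 (submandibular against sublingual). Without a filter sublingual against pancreas gave 4. Leaving out 1 animal gave 2 to 13, 0 to 22 and 0 to 24 (parotid, submandibular and sublingual against pancreas), 3 to 36 (pancreas against liver), 0 to 0 (parotid against submandibular), 6 to 52 and 4 to 60 (parotid and submandibular against sublingual), and 22 to 50, 17 to 64 and 2 to 14 (liver against parotid, submandibular and sublingual), most without animal 4, or animal 6 for parotid against pancreas and against sublingual. Of 89 results for named genes 37 kept their call without each animal in turn.

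Without the replicate block for the animal, the counts were 1 (sublingual against pancreas), 12 (submandibular against sublingual), 6 and 3 (parotid and submandibular against pancreas), 12 (pancreas against liver), 22 (parotid against sublingual), 0 (parotid against submandibular) and 37, 33 and 5 (liver against parotid, submandibular and sublingual). Among the calls lost were GARS (adjusted p = 0.0631) and EIF6 (0.0764) in pancreas against liver, QARS in sublingual against pancreas (0.077), EIF2AK2 in parotid against pancreas (0.0818) and EIF4EBP1 in liver against parotid (0.0528). Directions that turned on the scaled values were LARS in parotid against sublingual (0.015, and 0.10 without the 3 libraries), EIF2AK1 in liver against parotid (-0.42 and -0.65), and in liver against submandibular EIF2S2 (-0.25 and -0.48), EIF5B (-0.041 and -0.13) and AARS (-0.040); QARS in parotid against sublingual turned without the 3 libraries (0.047). TPM keeps no depth, so counting error at low levels is unknown.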

Other observations

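Within liver some members were higher in animals 2, 5 and 6 than in animals 1, 3 and 4, and others were lower. The genes listed are examples picked after their values were seen, and further members divided the same animals. EIF4B was at 25.0, 102, 35.7, 24.7, 94.7 and 107 TPM in animals 1 to 6, and EIF3J at 91.8, 51.0, 70.3, 107, 51.5 and 53.7 TPM. The mRNA-unwinding cofactor EIF4H, named after its values were seen, was at 14.4, 94.6, 19.7, 11.7, 78.4 and 99.8 TPM in animals 1 to 6. EIF4EBP2 was at 27.0, 87.7, 31.3, 12.4, 73.0 and 87.7 TPM. In the same libraries CARS2 was at 48.5, 24.0, 50.7, 43.3, 22.6 and 23.8 TPM and SARS2 at 71.9, 20.3, 39.1, 52.4, 21.7 and 28.2 TPM.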
